A study of Mus musculus with 23 samples.

Results

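The genes described here are 10 members of the Toll-like receptor system, namely Tlr1, Tlr2, Tlr3, Tlr4, Tlr7, Tlr8, Tlr9, Tlr13, the co-receptor Cd14 and the adaptor Myd88. They were taken by their symbols from a count table of 33280 genes, and all 10 were found in it. The table holds 23 RNA-seq libraries of macrophages that were sorted from the mouse brain 1 day after a thromboembolic stroke. Every mouse carried 1 tamoxifen-inducible Ccr2creERT2 allele and was homozygous for the R26tdT reporter, so that tamoxifen marks cells that express Ccr2 at that time, chiefly monocytes, together with their descendants. Young adult mice of both sexes were given BLZ945, which blocks CSF-1R signaling and thereby empties the brain of most of its macrophages, by gavage (200 mg/kg on each of 7 days), or vehicle alone (CTL). All of them, the vehicle mice included, received 2 mg tamoxifen on the last gavage day and again 2 and 4 days afterwards, and stroke was induced 8 weeks after the last gavage by injecting thrombin into the middle cerebral artery.

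The 5 groups were microglia of vehicle-treated mice (MG CTL, 5 libraries), microglia of BLZ945-treated mice (MG BLZ945, 5 libraries), subdural CNS-associated macrophages (sdCAMs) without the reporter from vehicle-treated mice (tdT- CTL, 5 libraries), sdCAMs without the reporter from BLZ945-treated mice (tdT- BLZ945, 5 libraries) and sdCAMs with the reporter from BLZ945-treated mice (tdT+ BLZ945, 3 libraries). MG were sorted as CD206-negative and sdCAMs as CD206-positive cells after Ly6C+, Ly6G+ and CD11c+ cells had been gated out and the choroid plexus had been removed. All libraries come from mice with stroke, so no comparison here shows a response to stroke. Reporter-negative sdCAMs are not shown by their label to be of another origin than monocytes, since a cell that did not recombine or that arrived outside the tamoxifen window also lacks the reporter. Libraries are named by the F or M and the number in their titles (F1, F2, F3, M1 and M2, and for tdT+ only F2, F3 and M2). A name shared within a treatment stands for the same animal or pool, and a name shared between treatments does not. By design each CTL library was made from 1 animal and each BLZ945 library from 2 pooled animals. The library names of F2 BLZ945 carry only 1 animal number where those of the other BLZ945 libraries carry 2, so whether F2 was pooled is not settled by the sources used here.

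Toll-like receptors are membrane proteins of innate immune cells that recognize conserved parts of microbes and, in injured tissue, molecules released from dying cells. Tlr1, Tlr2 and Tlr4 sit at the cell surface and sense lipoproteins and lipopolysaccharide, whereas Tlr3, Tlr7, Tlr8, Tlr9 and Tlr13 sit in endosomes and sense nucleic acids. Cd14 hands lipopolysaccharide and other ligands to the receptors, and Myd88 is the adaptor that passes the signal of most of them to NF-kB and interferon regulatory factors. Tlr3 is the exception in that it signals through the adaptor encoded by Ticam1. Brain macrophages are known to carry a broad set of these receptors, and after ischemia the receptors are among the routes by which tissue damage is sensed.

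The libraries held between 9433960 and 13276081 counts in genes, and 12733 to 16207 genes had at least 1 count. Levels are given as CPM, the counts of a gene scaled to library size with TMM factors, in which 3 counts were worth 0.230 to 0.334 CPM. Microglia markers (P2ry12, Tmem119, Sall1, Cx3cr1, Gpr34) summed to 8513 to 14522 CPM in the 10 MG libraries and to 887 to 1439 CPM in the 13 sdCAM libraries, and Sall1 alone stood at 154 to 278 CPM in MG and at 0.162 to 14.8 CPM in sdCAMs. Markers of sdCAMs (Mrc1, Cd163, Lyve1, Pf4, Cd209f, Ms4a7, Cbr2) summed to 10.6 to 50.7 CPM in MG and to 9938 to 17030 CPM in sdCAMs, so the labels of the 2 cell classes matched their markers in all 23 libraries. Of the libraries that stood apart, tdT- BLZ945 M2 had the fewest genes with a count (12733), and tdT- BLZ945 F1 had the highest summed level of 5 monocyte markers (241 CPM, against a median of 59.9 CPM in its group). The library names of the M1 BLZ945 samples repeat an animal number of the F2 BLZ945 samples, but Xist, the transcript of the inactive X chromosome, had 0 counts in both M1 libraries and 1045 to 2302 in the F2 libraries. Member and named pathway results whose call changed without these libraries are given with and without them.

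Among the members, the largest differences lay between MG and sdCAMs, and 2 endosomal receptors carried them in opposite directions. Tlr8, a sensor of uridine-rich RNA breakdown products, was at or near 0 in MG and clearly present in sdCAMs of every group. Tlr3, the sensor of duplex RNA, was lower in sdCAMs. To show the regions from which these genes are transcribed, the 250 bases before the annotated start are printed for Tlr8 and Tlr3, and for Tlr2, the surface receptor with the largest difference, from RefSeq on GRCm38.p6, all of them on the minus strand and written 5' to 3'. The windows are chrX:167264330-167264579 for Tlr8, chr8:45410381-45410630 for Tlr3 and chr3:83841609-83841858 for Tlr2, and capitals mark matches to the motifs named beneath.
Tlr8: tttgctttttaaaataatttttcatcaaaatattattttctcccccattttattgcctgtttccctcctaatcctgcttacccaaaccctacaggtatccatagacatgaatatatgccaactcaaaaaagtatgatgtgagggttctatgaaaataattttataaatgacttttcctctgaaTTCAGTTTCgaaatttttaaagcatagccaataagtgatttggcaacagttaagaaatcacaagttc
Tlr3: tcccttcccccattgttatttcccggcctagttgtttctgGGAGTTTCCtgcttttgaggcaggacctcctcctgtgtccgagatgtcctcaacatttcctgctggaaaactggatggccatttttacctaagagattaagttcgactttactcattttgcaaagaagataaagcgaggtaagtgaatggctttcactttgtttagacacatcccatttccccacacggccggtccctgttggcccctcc
Tlr2: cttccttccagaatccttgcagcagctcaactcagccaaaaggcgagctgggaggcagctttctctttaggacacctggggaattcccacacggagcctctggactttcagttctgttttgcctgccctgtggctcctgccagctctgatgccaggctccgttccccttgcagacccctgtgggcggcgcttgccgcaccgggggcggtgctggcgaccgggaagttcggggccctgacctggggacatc
Of the 10 members, 7 had a promoter entry in this collection (Tlr1, Tlr2, Tlr3, Tlr8, Tlr9, Tlr13 and Myd88). Both strands were searched for AGGAAGT (PU.1), GGAANNGAA (a PU.1-IRF composite element), GAAANNGAA (the core of the interferon-stimulated response element, which can overlap the composite element), GGANTTTCC (NF-kB) and TGANTCA (AP-1). The window of Tlr8 held 1 match to the interferon-stimulated core, starting 67 bases before the start site, and this motif was found in 7.13% of 32851 promoter windows of the same length. The window of Tlr3 held 1 match to the NF-kB motif at 210 bases before the start, found in 1.07% of all windows. The window of Myd88 held the interferon-stimulated core at 40 bases, that of Tlr9 an AP-1 match at 58 bases (6.75% of all windows), and 1 of the 2 windows of Tlr1 held a PU.1 match at 22 bases (7.69% of all windows). The windows of Tlr2 and Tlr13 held no match to the 5 strings searched, and the PU.1-IRF composite, found in 6.99% of all windows, was in none of the members' windows. Sites of these factors that depart from the strings searched were not looked for, so a window without a match is not shown to lack such a site. These matches describe letters only, and no binding was measured.

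In MG CTL, Tlr8 had 17, 0, 0, 2 and 3 counts in F1, F2, F3, M1 and M2, which are 1.56, 0, 0, 0.171 and 0.230 CPM. In MG BLZ945 it had 3, 0, 8, 0 and 0 counts in the same order. MG were thus close to empty of this transcript, with 5 of 10 libraries at 0, which allows up to 3 counts or 0.251 to 0.266 CPM in those libraries. In tdT- CTL, Tlr8 stood at 74.6, 85.1, 70.2, 66.8 and 46.8 CPM in F1, F2, F3, M1 and M2. In tdT- BLZ945 it stood at 63.6, 9.63, 66.2, 34.8 and 92.1 CPM, and in tdT+ BLZ945 at 15.8, 34.6 and 59.4 CPM in F2, F3 and M2. All 13 sdCAM libraries lay above all 10 MG libraries, and the lowest of them were the F2 BLZ945 libraries, tdT- and tdT+ alike.

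A gene is called different here where edgeR's quasi-likelihood test gave it a p under 0.05 after Benjamini-Hochberg adjustment over all genes tested, and adjusted p-values are edgeR's unless another tool is named. The log2 fold change of Tlr8 was 7.46 (adjusted p = 5.31e-07, SE 0.84) for tdT- CTL over MG CTL, 8.03 (adjusted p = 4.3e-07, SE 0.90) for tdT- BLZ945 over MG BLZ945 and 7.48 (adjusted p = 4.33e-05, SE 0.95) for tdT+ BLZ945 over MG BLZ945. Because the MG counts are so few, the size of these values depends on the small prior count of the fit, and when single libraries were left out the estimates ranged from 7.14 to 9.23 in CTL, 7.70 to 9.41 in tdT- BLZ945 and 6.94 to 8.85 in tdT+ BLZ945, with a call every time. In bulk RNA of sorted cells, a lower share of cells that carry a transcript and less transcript per cell cannot be told apart. Monocyte markers (Ly6c2, Ccr2, Plac8, Chil3, Ifitm6) summed to 3.72 to 16.5 CPM in MG and to 14.3 to 241 CPM in sdCAMs. Dendritic cell markers (Flt3, Itgax, Xcr1, Clec9a, Ccr7, Zbtb46, Cd209a) summed to 14.2 to 24.5 CPM in MG and to 31.4 to 780.2 CPM in sdCAMs, with Clec9a at 0 in all MG libraries and Xcr1 at 0 in all sdCAM libraries. The dendritic ranges were separate and the monocyte ranges overlapped. Marker sums were also separate for astrocytes (4.40 to 10.4 CPM in MG and 21.3 to 105.6 CPM in sdCAMs), neurons (4.53 to 12.4 and 38.5 to 110.0 CPM) and fibroblasts and mural cells (0.338 to 3.46 and 15.1 to 60.1 CPM), and for neutrophils in the other direction (152 to 245 and 36.6 to 126 CPM). Those of B cells, T and NK cells, endothelial cells and oligodendrocytes overlapped. Of the neutrophil markers, Ly6g was at 0 in all MG libraries and Cxcr2 at 0 in all sdCAM libraries. S100a8 and S100a9 had means of 1.96 to 4.58 CPM in the 2 MG groups. Most of the neutrophil sum in MG thus came from other genes of that list. The part of any of these lists in the levels of Tlr8 and of Tlr3 below was not tested.

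Tlr3 showed the reverse order. It stood at 82.6, 84.0, 94.8, 82.9 and 48.5 CPM in MG CTL F1, F2, F3, M1 and M2, and at 110.4, 101, 78.8, 87.8 and 94.6 CPM in MG BLZ945. In tdT- CTL it stood at 15.7, 9.58, 7.11, 9.31 and 9.71 CPM, in tdT- BLZ945 at 24.5, 14.2, 18.2, 9.42 and 0.557 CPM and in tdT+ BLZ945 F2, F3 and M2 at 34.7, 9.99 and 8.63 CPM. Every MG library was above every sdCAM library, the nearest being MG CTL M2 and tdT+ BLZ945 F2. In sdCAMs over MG, its log2 fold change was -2.92 (adjusted p = 5.59e-05, SE 0.47) in CTL, -2.81 (adjusted p = 7.85e-05, SE 0.47) for tdT- BLZ945 and -2.40 (adjusted p = 0.0335, SE 0.74) for tdT+ BLZ945 over MG BLZ945. The 2 tdT- comparisons kept their call without any single library, whereas the tdT+ comparison kept it in only 2 of 8 such fits (log2 fold change -3.34 to -2.07, adjusted p 0.0204 to 0.12) and lost it without the M1 BLZ945 libraries (-2.48, adjusted p = 0.0568). Library tdT- BLZ945 M2 had only 5 counts of Tlr3, where the other sdCAM libraries had 72 to 363, and without tdT- BLZ945 F1 and M2 together the value for tdT- BLZ945 was -2.76 (adjusted p = 2.45e-07). An antisense gene model, Gm45542, overlaps exons of Tlr3 in GENCODE vM21, and since the strand setting of the counting is not given in the sources used here, its reads cannot be told apart from those of Tlr3.

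**Figure D1:**
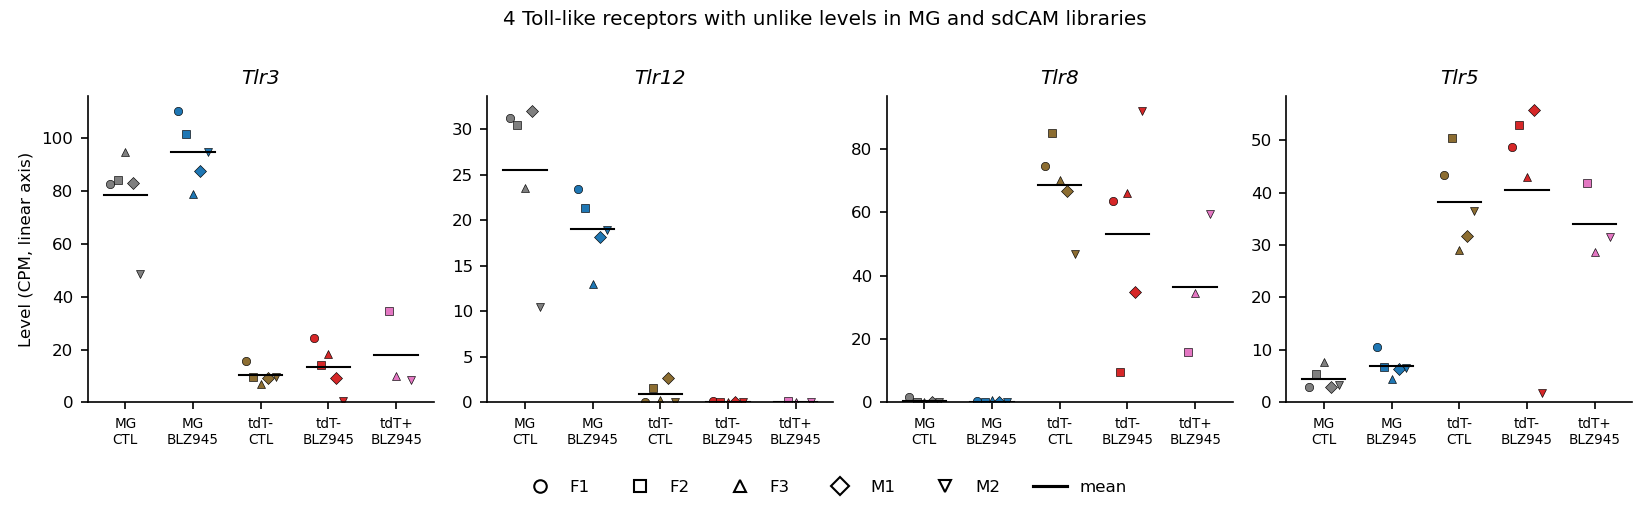
Levels of Tlr3, Tlr12, Tlr8 and Tlr5 (CPM, linear axis, 1 panel per gene) in every library of the 5 groups. Each point is 1 library with its shape giving the library name, and bars are group means. Tlr3 and Tlr12 are higher in all MG libraries than in all sdCAM libraries, Tlr8 is higher in all sdCAM libraries, and Tlr5 is higher in all sdCAM libraries except tdT- BLZ945 M2, which lies at 1.78 CPM.

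The other endosomal receptors differed less. Tlr7, which also senses uridine-rich RNA and is the neighbor of Tlr8 on chromosome X, stood at 385, 362, 261, 226 and 269.9 CPM in MG CTL F1, F2, F3, M1 and M2, and at 312, 287, 361, 346 and 370.0 CPM in MG BLZ945. It stood at 305, 285.8, 252, 165 and 189 CPM in tdT- CTL, at 219, 239.7, 237, 225 and 261 CPM in tdT- BLZ945 and at 276, 258.5 and 258.2 CPM in tdT+ BLZ945 F2, F3 and M2. The groups overlapped in CTL and were separate after BLZ945, but the gap between MG BLZ945 F2 and tdT+ BLZ945 F2 was small. For Tlr7 the fit gave a log2 fold change of -0.32 (adjusted p = 0.171, SE 0.16) in CTL, -0.49 (adjusted p = 0.025, SE 0.16) for tdT- BLZ945 and -0.33 (adjusted p = 0.094, SE 0.13) for tdT+ BLZ945, so that 1 of these 3 comparisons was called. With the animal or pool as a block, which compares MG and sdCAMs of the same mice, the CTL comparison was called as well (-0.33, SE 0.09, adjusted p = 0.0202), and Tlr7 was lower in tdT- than in MG in 5 of 5 CTL animals and 5 of 5 BLZ945 pools. The call in BLZ945 was lost without MG BLZ945 F3 (adjusted p = 0.0523), without MG BLZ945 M2 (adjusted p = 0.0591) and without the M1 BLZ945 libraries (-0.47, adjusted p = 0.0765).

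Tlr13, a mouse receptor for bacterial ribosomal RNA, stood at 276, 289, 263.2, 216 and 231 CPM in MG CTL and at 350.1, 313, 379, 357 and 403 CPM in MG BLZ945 (F1, F2, F3, M1 and M2). It stood at 304, 312, 220.4, 247 and 186 CPM in tdT- CTL, at 236, 125, 231, 276 and 399.8 CPM in tdT- BLZ945 and at 145, 203 and 248 CPM in tdT+ BLZ945 F2, F3 and M2. In CTL the 2 cell classes lay at the same level, with a log2 fold change of 0.00 and a 95% interval from -0.42 to 0.43. After BLZ945 the mean was lower in sdCAMs, with -0.49 (adjusted p = 0.0714, SE 0.21) for tdT-, where M2 lay among the MG libraries, and -0.85 (adjusted p = 0.0499, SE 0.28) for tdT+, where no library did. Blocking by pool gave a call for tdT- BLZ945 (-0.58, adjusted p = 0.0125), as did leaving out tdT- BLZ945 M2 (-0.72, adjusted p = 0.0052) or F1 and M2 together (-0.77, adjusted p = 0.00788). The tdT+ call was kept in 1 of 8 fits without a single library (adjusted p 0.0474 to 0.196) and was lost without the M1 BLZ945 libraries (-0.89, adjusted p = 0.0833).

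Tlr9, the receptor for unmethylated CpG DNA, was near the limit of detection in all groups, at 0.536 to 2.98 CPM in MG CTL, 0.507 to 5.41 CPM in MG BLZ945, 0 to 2.37 CPM in tdT- CTL, 0.111 to 3.68 CPM in tdT- BLZ945 and 0.479 to 1.30 CPM in tdT+ BLZ945. The highest library was MG BLZ945 M1 with 61 counts, and tdT- CTL F1 had 0, which allows up to 0.253 CPM. No difference of Tlr9 was detectable at this depth, and the 95% interval of its log2 fold change in CTL ran from -2.06 to 1.95.

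Of the surface receptors, Tlr2 was lower in sdCAMs than in MG after BLZ945. Tlr2, which binds bacterial lipoproteins together with Tlr1 or Tlr6, stood at 285, 254, 458, 271.03 and 358 CPM in MG CTL and at 515, 330.1, 688, 452 and 493 CPM in MG BLZ945 (F1, F2, F3, M1 and M2). It stood at 237, 257.5, 238, 277 and 234 CPM in tdT- CTL, at 215, 132, 257.5, 270.5 and 216 CPM in tdT- BLZ945 and at 137, 257.9 and 237 CPM in tdT+ BLZ945 F2, F3 and M2. In BLZ945 mice no sdCAM library reached the lowest MG library, whereas in CTL mice the 2 classes overlapped. F2 was the lowest library in each of the 3 BLZ945 populations. Relative to MG, Tlr2 had a log2 fold change of -0.38 (adjusted p = 0.176, SE 0.20) in CTL, -1.17 (adjusted p = 8.69e-05, SE 0.20) for tdT- BLZ945 and -1.22 (adjusted p = 0.00642, SE 0.28) for tdT+ BLZ945. Both BLZ945 calls were kept without any single library.

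Tlr4, the lipopolysaccharide receptor, was the surface receptor called higher in sdCAMs, which held for CTL mice and was not shown to differ from BLZ945 mice. It stood at 124, 149.5, 96.0, 102 and 126 CPM in MG CTL, at 134, 80.4, 92.4, 117 and 137 CPM in MG BLZ945, at 191, 280.2, 134, 163 and 182 CPM in tdT- CTL (each F1, F2, F3, M1 and M2), at 143, 64.8, 157, 167 and 90.5 CPM in tdT- BLZ945 and at 166, 122 and 127 CPM in tdT+ BLZ945 F2, F3 and M2. The CTL groups overlapped through tdT- CTL F3, yet Tlr4 was higher in tdT- than in MG in 5 of 5 animals. Its log2 fold change was 0.68 (adjusted p = 0.0383, SE 0.24) in CTL, 0.16 (adjusted p = 0.64, SE 0.24) for tdT- BLZ945 and 0.31 (adjusted p = 0.504, SE 0.28) for tdT+ BLZ945. The call in CTL was kept in 3 of 10 fits without a single library and was lost, with the lowest estimate, without tdT- CTL F2 (0.49, adjusted p = 0.144). Tlr1, the partner of Tlr2 for triacylated lipoproteins, lay at 44.6 to 90.2 CPM in MG CTL, 46.0 to 71.5 CPM in MG BLZ945, 44.7 to 75.1 CPM in tdT- CTL, 33.8 to 74.9 CPM in tdT- BLZ945 and 41.4 to 62.2 CPM in tdT+ BLZ945, and none of its comparisons was called. Tlr1 and Tlr6 are close copies of each other, and how reads that match both were counted is not given in the sources used here.

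Cd14 was by far the most abundant member in every group. It stood at 1449.8, 1360.1, 2626, 1629.6 and 4534 CPM in MG CTL and at 2221, 2337, 5728, 2472 and 3957 CPM in MG BLZ945 (F1, F2, F3, M1 and M2). It stood at 3497, 3945, 6062, 3663 and 2627 CPM in tdT- CTL, at 3149, 1703, 6057, 4392 and 4359.9 CPM in tdT- BLZ945 and at 1885, 5856 and 4169 CPM in tdT+ BLZ945 F2, F3 and M2. Cd14 spread widely within every group, and in BLZ945 mice F3 was the highest and F2 the lowest library of both sdCAM populations. The log2 fold change over MG was 0.78 (adjusted p = 0.119, SE 0.36) in CTL, 0.25 (adjusted p = 0.636, SE 0.35) for tdT- BLZ945 and 0.26 (adjusted p = 0.726, SE 0.41) for tdT+ BLZ945. With the animal as a block the CTL comparison was called (0.92, SE 0.28, adjusted p = 0.0316), and tdT- was higher than MG in 4 of 5 animals, with M2 as the exception. Without MG CTL M2, the highest MG CTL library, it was called too (1.17, adjusted p = 0.0151).

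Myd88 was the most even member. Its means were 141 ± 14.999 CPM (SD, n = 5) in MG CTL, 161 ± 13.5 CPM (SD, n = 5) in MG BLZ945, 125 ± 24.7 CPM (SD, n = 5) in tdT- CTL, 131 ± 22.7 CPM (SD, n = 5) in tdT- BLZ945 and 132 ± 42.5 CPM (SD, n = 3) in tdT+ BLZ945. The groups overlapped in all 3 comparisons of sdCAMs with MG, and the log2 fold changes were -0.17, -0.28 and -0.28 with adjusted p-values of 0.44, 0.133 and 0.385 from edgeR. The 95% intervals for CTL and tdT- BLZ945 ran from -0.46 to 0.12 and from -0.58 to 0.01. Exons of Acaa1a on the other strand overlap those of Myd88 in GENCODE vM21, so the strand limit named for Tlr3 holds here too.

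Counted together, 3 of 10 members were called for tdT- CTL over MG CTL (Tlr8, Tlr3 and Tlr4) where 25.6% of 12697 genes were called, 4 of 10 for tdT- BLZ945 over MG BLZ945 (Tlr8, Tlr3, Tlr2 and Tlr7) where 32.4% of genes were, and 4 of 10 for tdT+ BLZ945 over MG BLZ945 (Tlr8, Tlr3, Tlr2 and Tlr13) where 18.9% of 12868 genes were. The groups did not overlap in CPM for 2 members in CTL (26.8% of all genes), for 4 in tdT- BLZ945 (22% of all genes) and for 5 in tdT+ BLZ945 (34.8% of all genes). The members' share of calls was near that of all genes in both tdT- comparisons and above it for tdT+, where 2 of the 4 calls, Tlr3 and Tlr13, were lost in most fits without a single library. What set Tlr8 and Tlr3 apart from the other members was the size of their difference. The median log2 fold change of the members was -0.11, -0.31 and -0.30 in the 3 comparisons, against -0.01, -0.02 and -0.01 over all genes tested.

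**Figure D2:**
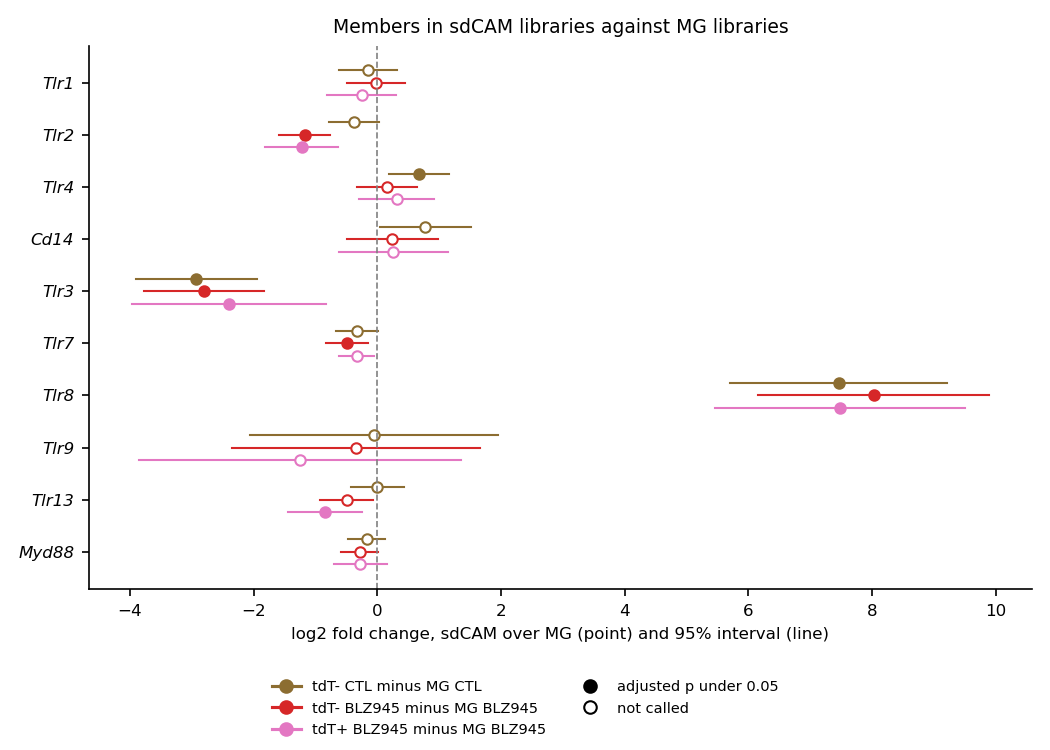
Log2 fold change of each member in sdCAM libraries over MG libraries (points, x axis) with its 95% interval (lines), for tdT- CTL, tdT- BLZ945 and tdT+ BLZ945. Filled points had an adjusted p under 0.05. Tlr8 lies between 7.46 and 8.03 and Tlr3 between -2.92 and -2.40, while the other members lie between -1.25, the value of Tlr9 in tdT+ BLZ945, and 0.78, that of Cd14 in CTL.

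Per length of the annotated exons, the order of the members differed between MG CTL and tdT- CTL mainly through Tlr8. In MG CTL, Cd14 stood at 1339 CPM per kilobase, followed by Tlr2 (107.9), Tlr7 (73.7), Tlr13 (59.2), Myd88 (54.8), Tlr4 (21.5), Tlr1 (19.1), Tlr3 (15.1), Tlr9 (0.398) and Tlr8 (0.109). Library F1 held 17 of the counts behind that last value, and without it the mean of Tlr8 in MG CTL was 0.100 CPM, against 0.392 CPM with it. In tdT- CTL, Cd14 stood at 2286 CPM per kilobase, followed by Tlr2 (82.5), Tlr13 (59.0), Tlr7 (58.7), Myd88 (48.3), Tlr4 (34.2), Tlr8 (19.2), Tlr1 (17.1), Tlr3 (1.97) and Tlr9 (0.380). Tlr8 moved from the last place to the seventh, at a level like that of Tlr1, and Tlr3 lay next above Tlr9 in both groups. Neighbors such as Tlr13 and Tlr7, or Tlr8 and Tlr1, in tdT- CTL lay within each other's spread.

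The treatment comparison asked whether macrophages that had been depleted and had returned differed 1 day after stroke from those of vehicle-treated mice. A difference already present before the stroke and a different response to it cannot be told apart here. In MG, the members with the lowest p were Tlr13 and Tlr2, whose values per library are given above. For Tlr13 every MG BLZ945 library, from 313 to 403 CPM, lay above every MG CTL library, from 216 to 289 CPM, as did 3.03% of all genes in this comparison in either direction. For Tlr2 the groups overlapped, with 4 of 5 MG BLZ945 libraries above 4 of 5 MG CTL libraries. BLZ945 over CTL gave a log2 fold change of 0.49 (adjusted p = 0.0593, SE 0.11) for Tlr13 and 0.60 (adjusted p = 0.177, SE 0.19) for Tlr2. With edgeR, 0 of the 9 members tested were called, where 0.408% of 11264 genes were, 2 had an unadjusted p under 0.05 (0.000321 for Tlr13 and 0.00525 for Tlr2), and DESeq2 called both (adjusted p = 0.00219 for Tlr13 and 0.0383 for Tlr2), where it called 2.16% of 11039 genes. In 10 edgeR fits without a single library, Tlr13 kept an estimate of 0.43 to 0.53 and was called once, without MG BLZ945 F2 (adjusted p = 0.0346). In the fit with 1 model for all 23 libraries, its adjusted p was 0.994.

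Cd14 in MG stood at 0.51 (adjusted p = 0.534, SE 0.32) on the log2 fold change scale, with a 95% interval from -0.17 to 1.20, Myd88 at 0.18 (adjusted p = 0.495), Tlr3 at 0.26 (adjusted p = 0.499), Tlr9 at 0.40 (adjusted p = 0.851) and Tlr7 at 0.15 (adjusted p = 0.705). Tlr1 at -0.11 and Tlr4 at -0.10 were the 2 members with an estimate below 0. Tlr8 had too few counts in MG to be tested. The median over the 9 members was 0.26, against 0.00 over all genes.

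In tdT- sdCAMs, no member was called different between BLZ945 and CTL. The lowest p was that of Tlr4, whose tdT- CTL libraries lay at 134 to 280.2 CPM and whose tdT- BLZ945 libraries lay at 64.8 to 167 CPM, with F2 and M2 at the bottom. Its log2 fold change was -0.60 (adjusted p = 0.835, SE 0.25) at an unadjusted p of 0.0323, and without tdT- BLZ945 F1 and M2 together it was -0.54 (adjusted p = 0.701). Tlr8 at -0.35 (95% interval -1.32 to 0.61) and Tlr3 at 0.39 (-1.02 to 1.79) had wide intervals, and each had 1 BLZ945 library far below the others, F2 for Tlr8 and M2 for Tlr3. With edgeR, 0 of 10 members and 0% of 13076 genes were called in this comparison, and DESeq2 called 0 members too. The groups were separate for 1.84% of all genes, and for 0 of the members. The dendritic cell marker sum was 219.6 to 780.2 CPM in tdT- CTL and 31.4 to 209 CPM in tdT- BLZ945, a difference between these 2 groups whose part in the members' values was not tested.

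The BLZ945 effect was then set against itself between the 2 cell classes. The difference of the log2 fold changes, tdT- minus MG, was -0.79 (adjusted p = 0.381, SE 0.28) for Tlr2, with an unadjusted p of 0.00893, -0.51 (adjusted p = 0.712, SE 0.33) for Tlr4 and -0.49 (adjusted p = 0.674, SE 0.29) for Tlr13. With edgeR, 0 of 10 members were called, 1 had an unadjusted p under 0.05 and DESeq2 called 0, while edgeR called 0.0394% of 12697 genes. A difference between the sdCAM-to-MG contrasts of CTL and BLZ945 mice is therefore not shown for any member, Tlr2 and Tlr4 included.

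The comparison of tdT+ with tdT- sdCAMs of the same BLZ945 pools asked whether cells that bear the Ccr2 label differ from their unlabeled neighbors. Transcript of the reporter locus, counted as Gt(ROSA)26Sor, stood at 29.6 to 42.2 CPM in the 3 tdT+ libraries and at 3.78 to 9.78 CPM in the 10 tdT- libraries. Tlr8 was at 9.63, 66.2 and 92.1 CPM in tdT- and at 15.8, 34.6 and 59.4 CPM in tdT+ of F2, F3 and M2, lower in tdT+ in 2 of the 3 pools. Tlr3 was at 14.2, 18.2 and 0.557 CPM in tdT- and at 34.7, 9.99 and 8.63 CPM in tdT+ of the same pools, with no common direction. Tlr1 was lower in tdT+ in all 3 pools, by 0.16 to 0.70 on the log2(CPM + 1) scale, and Tlr2 differed by 0.13 at most.

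Against all 5 tdT- BLZ945 libraries, the log2 fold change was -0.56 for Tlr8 (95% interval -1.69 to 0.58), -0.37 for Tlr13 (-1.01 to 0.27), -0.25 for Tlr1 (-0.84 to 0.34) and 0.39 for Tlr3 (-1.22 to 1.99). That of Tlr4 was 0.13, that of Tlr7 0.14, that of Tlr2 -0.07 and that of Myd88 -0.01, and Cd14 means were 3969.9 and 3932 CPM. With edgeR, 0 of 10 members were called where 0.206% of 13076 genes were, 0 had an unadjusted p under 0.05 and DESeq2 called 0. No member's groups were separate, as 3.43% of all genes were. Against tdT- CTL, with which tdT+ shares neither animals nor treatment, Tlr8 had the estimate farthest below 0 at -0.91 (95% interval -2.06 to 0.24), and 0 of 10 members were called by edgeR or DESeq2, 0 at an unadjusted p under 0.05, where 0.283% of genes were called and 8.24% were separate. With 3 tdT+ libraries, these intervals allow changes of more than 2-fold for Tlr3, Tlr8 and Tlr9 in both comparisons, for Tlr13 against tdT- BLZ945 and for Tlr4 against tdT- CTL.

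**Figure D3:**
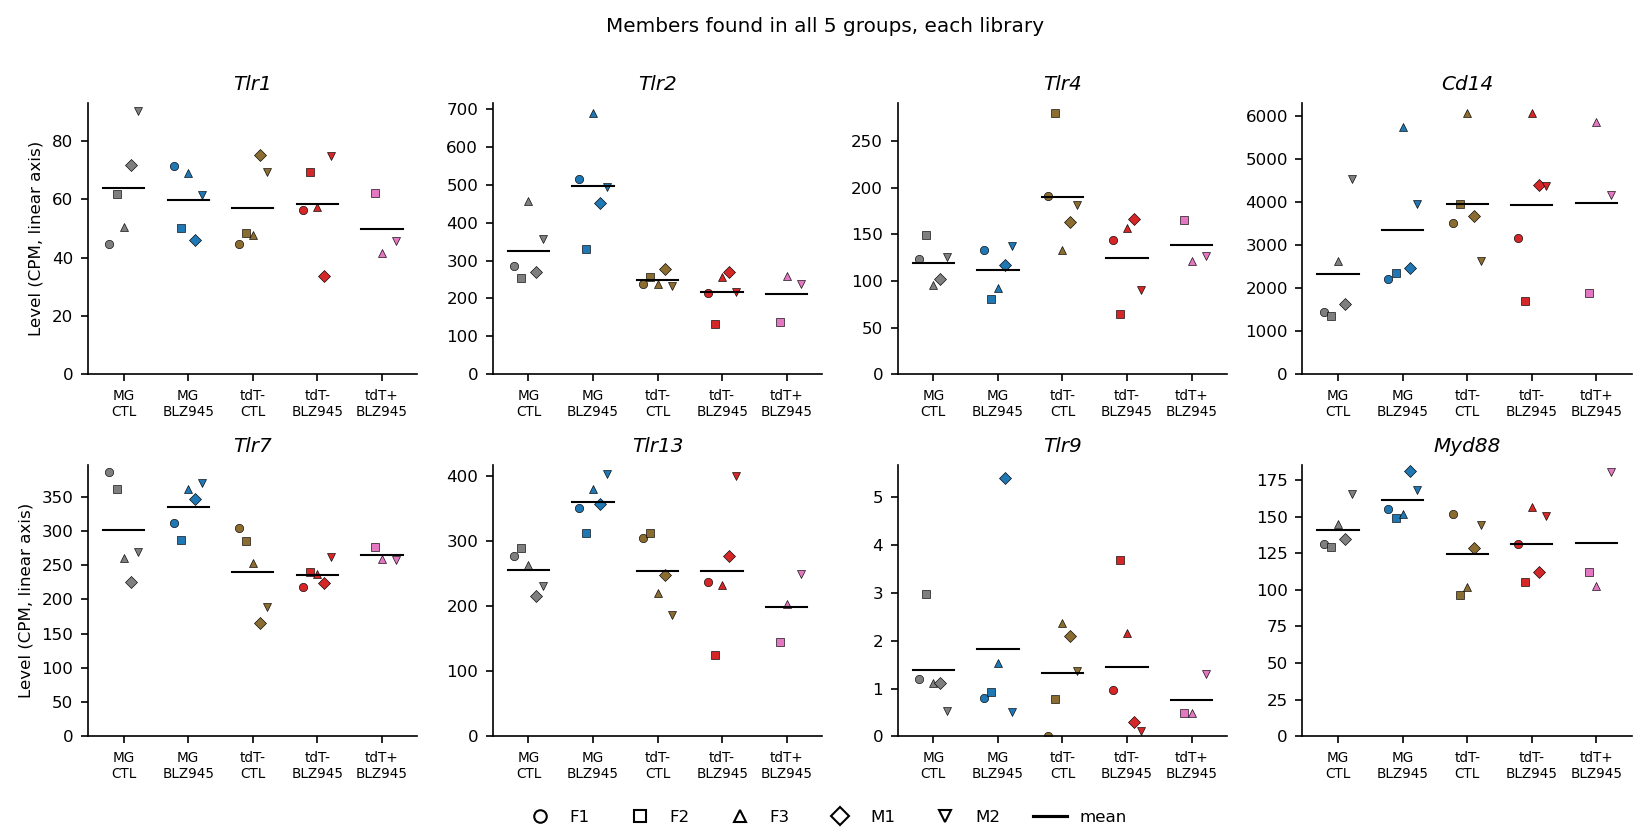
Levels of Tlr1, Tlr2, Tlr4, Cd14, Tlr7, Tlr13, Tlr9 and Myd88 (CPM, linear axis from 0, 1 panel per gene) in every library. Each point is 1 library with its shape giving the library name, and bars are group means. Tlr13 is separate between MG CTL and MG BLZ945, Tlr2 is lower in the sdCAM libraries of BLZ945 mice than in their MG libraries, and Cd14 spreads from 1360.1 to 6062 CPM.

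**Figure D4:**
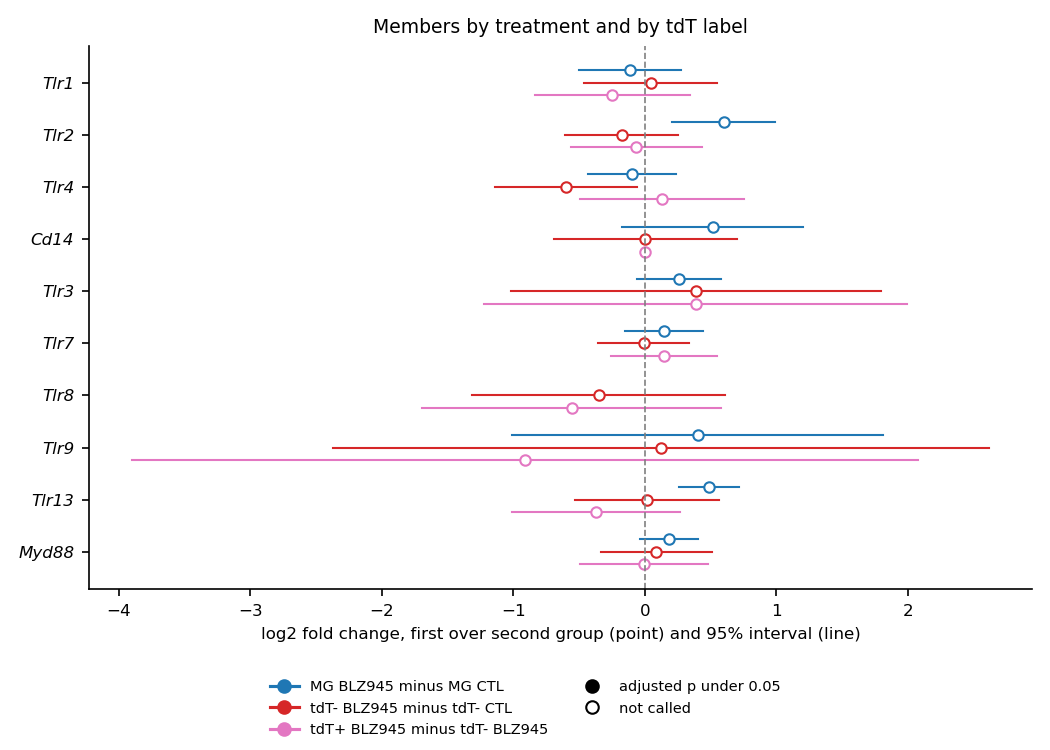
Log2 fold change of each member (points, x axis) with its 95% interval (lines) for BLZ945 over CTL in MG and in tdT- sdCAMs, and for tdT+ over tdT- sdCAMs of BLZ945 mice. All points are open because none had an adjusted p under 0.05, Tlr8 has no MG value because it was not tested there, and Cd14 has no interval for tdT+ over tdT- because its estimate was too near 0 to give one.

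Tlr7, Tlr8 and Tlr13 lie on the X chromosome, so libraries with F in their titles were compared with those with M, with treatment in the model. The log2 fold change of Tlr7 was 0.12 in MG (95% interval -0.19 to 0.43) and 0.29 in tdT- sdCAMs (-0.07 to 0.65). That of Tlr13 was 0.07 in MG and -0.23 in tdT-, and that of Tlr8 was -0.02 in tdT-. With edgeR, 0 of 9 members tested in MG and 0 of 10 in tdT- were called, 0 had an unadjusted p under 0.05, and DESeq2 called 0, where edgeR called 0.0178% of 11264 genes in MG and 0.00856% of 11689 genes in tdT-.

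The members work within a larger pathway, of which 66 further genes were listed in 9 groups. For tdT- CTL over MG CTL, 10 of 62 tested were called higher and 15 lower, where 25.6% of all genes were called in either direction. For tdT- BLZ945 over MG BLZ945, 11 of 62 were higher and 21 lower (32.4% of all genes called), and for tdT+ BLZ945 over MG BLZ945, 7 of 63 were higher and 12 lower (18.9% of all genes called). Pathway genes are named for the comparisons in which their change was among the largest, so a gene named for 1 comparison may differ in the others too. The receptors outside the members (Tlr5, Tlr6, Tlr11 and Tlr12) are given as a whole list, whether or not the rule for naming pathway genes picked them. Tlr5, the flagellin receptor, stood at 2.90 to 7.70 CPM in MG CTL and at 29.1 to 50.4 CPM in tdT- CTL, and it rose by 3.10, 2.55 and 2.30 on the log2 scale in the 3 comparisons (adjusted p = 0.000141, 0.000739 and 0.0198), of which the third was lost without the M1 BLZ945 libraries (2.23, adjusted p = 0.0589). Tlr12, an endosomal receptor known for sensing protozoan profilin, stood at 31.2, 30.5, 23.5, 32.0 and 10.5 CPM in MG CTL and had 58 counts in the 5 tdT- CTL libraries together, 1 in tdT- BLZ945 and 2 in tdT+ BLZ945. It was called lower in all 3 comparisons (adjusted p = 8.93e-05, 1.89e-06 and 0.000174). Tlr6, the second partner of Tlr2, stood at means of 34.6 to 41.2 CPM in the 5 groups and was called in none. Tlr11 had 0 counts in all 10 MG libraries and 45, 28 and 21 counts in the tdT- CTL, tdT- BLZ945 and tdT+ BLZ945 groups.

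The proteins that work beside the receptors at the surface split in direction. Ly96, which encodes the MD-2 partner of Tlr4, stood at a mean of 75.9 CPM in MG BLZ945 and 217 CPM in tdT- BLZ945, a log2 fold change of 1.53 (adjusted p = 7.34e-06, SE 0.21) there and 1.49 (adjusted p = 0.000904, SE 0.26) for tdT+. Cd36, a scavenger receptor that assists Tlr2, was higher in sdCAMs in all 3 comparisons (4.92, 1.94 and 1.97, adjusted p = 8.25e-08, 0.00144 and 0.00271). Cd180 and its partner Ly86, which are known to restrain lipopolysaccharide signals in macrophages, went the other way, with -1.54 (adjusted p = 5e-07, SE 0.17) for Ly86 in CTL and -2.09 (adjusted p = 0.000999, SE 0.37) for Cd180 in tdT+ BLZ945. Of 5 co-receptors and accessory proteins, 3 were called higher and 2 lower in CTL, and 2 and 2 in each BLZ945 comparison. In CTL mice, means in tdT- and MG were 181 and 70.7 CPM for Ly96 and 28.7 and 78.3 CPM for Cd180. In BLZ945 mice, Ly86 means were 1122 CPM in tdT- and 1158 CPM in tdT+ sdCAMs, against 2670 CPM in MG.

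Among the endosomal machinery, Slc15a3 and Slc15a4, transporters of the endolysosomal membrane that serve Tlr7 to Tlr9 signaling, were lower in tdT- sdCAMs, with -1.80 (adjusted p = 0.00546, SE 0.46) for Slc15a3 in CTL and -2.15 (adjusted p = 6.82e-05, SE 0.35) for Slc15a4 in BLZ945. Ctsl, an endosomal protease, was lower in tdT+ BLZ945 (log2 fold change -1.34, SE 0.21, adjusted p = 0.000401). Unc93b1, the chaperone that brings the endosomal receptors to their place, was named after its values were seen because it did not follow this pattern, and its means of 1062 to 1232 CPM over the 5 groups gave no call. Of 9 endosomal proteases and nucleases, 2 were called higher and 3 lower in each of the 3 comparisons. Downstream, Irf7, the interferon regulatory factor for endosomal receptors, was higher in tdT- CTL (log2 fold change 2.10, SE 0.34, adjusted p = 6.45e-05) and Irak2, a kinase below Myd88, was lower in tdT+ BLZ945 (log2 fold change -1.61, SE 0.44, adjusted p = 0.0178). Ticam1, the adaptor of Tlr3, fell in tdT- BLZ945 (log2 fold change -1.72, SE 0.66, adjusted p = 0.0487), where library M2 had 0 counts, and without tdT- BLZ945 F1 and M2 together the value of Ticam1 was -1.08 (adjusted p = 0.0307), whereas without the M1 BLZ945 libraries it was -1.83 and the call was lost (adjusted p = 0.0703). Of 5 genes for trafficking and folding, 0 were called higher and 2 lower in CTL, 1 and 3 in tdT- BLZ945, and 0 and 0 in tdT+ BLZ945. Of 14 kinases and ubiquitin ligases, 1 was lower in CTL and 1 in tdT+ BLZ945, as were 3 in tdT- BLZ945, and of 5 interferon regulatory factors, 2 were lower in each comparison and Irf7 was higher in CTL. Of 5 other adaptors, 2 were lower in tdT- BLZ945 and 0 were called in CTL or tdT+ BLZ945. Of the endogenous ligands, 0 of 4 were called in CTL, 2 of 4 were higher in tdT- BLZ945 and 1 of 5 in tdT+ BLZ945.

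Of the negative regulators, Dusp1, a phosphatase of MAP kinases, was higher in tdT- CTL (log2 fold change 2.01, SE 0.31, adjusted p = 2.66e-05) and in tdT+ BLZ945 (log2 fold change 1.50, SE 0.34, adjusted p = 0.00638), and Lilrb4a, an inhibitory receptor, in tdT- BLZ945 (log2 fold change 1.55, SE 0.40, adjusted p = 0.00497). Trem2, a lipid receptor that dampens Toll-like receptor signals, was lower in tdT- CTL (log2 fold change -1.53, SE 0.14, adjusted p = 2.97e-08), and Socs1, a suppressor of cytokine and adaptor signaling, was lower in tdT+ BLZ945 (log2 fold change -1.61, SE 0.54, adjusted p = 0.0491), a call lost without the M1 BLZ945 libraries (adjusted p = 0.0804). Of 12 tested, 3 were higher and 4 lower in CTL, 3 and 5 in tdT- BLZ945, and 1 and 3 in tdT+ BLZ945. In BLZ945 mice, Trem2 means were 599 CPM in tdT- and 740 CPM in tdT+ sdCAMs, against 1517 CPM in MG. The mean of Dusp1 was 3654 CPM in tdT- BLZ945, against 1499 CPM in MG BLZ945. Between groups of the same cell class, the 1 pathway gene called was Cd36 in MG BLZ945 over MG CTL (log2 fold change 2.38, SE 0.50, adjusted p = 0.0497). There 59 pathway genes were tested, and 0.408% of 11264 genes were called over all. Cd36 was not called there without MG BLZ945 M1 (2.36, adjusted p = 0.0982).

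To see which genes shared the pattern of a member, each member's log2(CPM + 1) values over the 23 libraries, centered on their mean, were set against those of 4844 genes with a mean log2 level of at least 5. The genes nearest to Tlr8 were Igfbp4, Lgals1 and Ccl7, at a root mean square difference of 0.77, 0.88 and 0.89, where Tlr8 itself varied with an SD of 2.79. Nearest to Tlr3 (SD 1.67) were Epb41l2, Rasal3 and Gng10, at 0.58, 0.67 and 0.68. Nearest to Cd14 (SD 0.68) were Cebpb, Ier3 and Cdkn1a, at 0.33, 0.42 and 0.42, and nearest to Tlr2 (SD 0.57) were Peli1, Itgb2 and Cebpa, at 0.29, 0.31 and 0.32. For Tlr1, Tlr4, Tlr7, Tlr13 and Myd88, whose SD was at most 0.45, the nearest genes lay at 0.17 to 0.27. For Tlr9 the nearest lay at 0.47, on values of few counts.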

How the data were processed

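RNA of 23 sorted cell samples was sequenced after SMART-Seq mRNA low-input library preparation, which carries no molecular identifiers. Per the labels and the submitters' processing notes, the authors demultiplexed with bcl2fastq 2.20, aligned with STAR 2.7.11a and counted reads per gene with featureCounts 2.0.6, and DESeq2 1.46.0 is also named. The deposited values are raw counts per gene, 1 column per library. The notes do not settle between mm10 and GRCm39, and the strand and multi-mapping settings of the counting are not given in the sources used here.

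From these counts, CPM were computed with TMM factors, and each comparison was fitted with edgeR 4.0.16 (quasi-likelihood, filterByExpr) in R 4.3.3, with Benjamini-Hochberg adjustment over all genes tested. The models held 20 libraries for tdT- against MG and for the difference of the BLZ945 effects, 13 for tdT+ against MG and among sdCAMs, and 10 within MG and for F against M. DESeq2 1.42.0, RLE factors, another filter, 1 model of all libraries, a replicate block and leaving out libraries were alternatives. With 3 counts worth 0.230 to 0.334 CPM, rarer transcripts were not detectable, and intervals cover the spread between libraries, whose animals differ within a group. Some of the fits were also run on simulated counts with known changes, and the outcome is not given here.

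Within a treatment the names F1 to M2 pair cell populations of the same animal or pool, as the library names show. Deviations from group means correlated at a mean of 0.110 (MG and tdT- CTL), 0.0815 (MG and tdT- BLZ945), 0.131 (MG and tdT+) and 0.0689 (tdT- and tdT+) within animals, against -0.0657 to -0.0199 between animals. The blocked value is printed where it changed a call.

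Members, gene lists and tests were chosen with earlier results of these data known. Pathway genes are named where they were among the 4 largest called changes in a direction with an average log2 CPM of at least 3. Outside this rule, the other Toll-like receptors are given as a whole list, and Unc93b1 was named after its values were seen. Promoters came from RefSeq (GRCm38.p6), and exon lengths and overlaps from GENCODE vM21. Of the marker lists, 2 genes are not reported here and were left out of the sums.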

Additional observations from a re-analysis of the deposited data

Results flagged for a closer look

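Of 40 sets of 5 libraries, 1 per member and group of that size, 2 held a library that stood apart by Dixon's criterion for 5 values (0.71) on the log2(CPM + 1) scale, where chance gives about 1 in 20. Tlr3 in MG CTL M2 stood at 48.5 CPM, below the nearest library at 82.6 CPM (gap over range 0.794 on that log2 scale). Tlr8 in MG CTL F1 stood at 1.56 CPM, or 17 counts, above the nearest at 0.230 CPM (0.780 on the same scale). Without MG CTL M2, or without MG CTL F1, both receptors were still called different between tdT- CTL and MG CTL.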

How the results depend on the processing

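Member values were compared under the alternatives only where the main unadjusted p was under 0.05 or the block called the member. Of these values, 268 kept their direction and side of the threshold, 28 lost and 10 gained a call, and 0 reversed. Estimates near 0 were left out by this choice, so whether they change direction was not examined. For MG BLZ945 against CTL, where edgeR called 0 members, DESeq2 called 2 (Tlr2 and Tlr13), a replicate block over names that stand for different animals called 1 (Tlr2, adjusted p = 0.0134), and leaving out 1 library gave 0 to 1. For tdT- CTL against MG CTL, 3 members were called, 5 with the replicate block, which pairs the same animals, and 2 to 3 without 1 library. For tdT- BLZ945 against MG BLZ945, 4 were called and 3 to 5 without 1 library. For tdT+ BLZ945 against MG BLZ945, 4 were called, 2 to 3 without 1 library and 2 without the M1 BLZ945 libraries, an alternative chosen after seeing the data, as was leaving out tdT- BLZ945 F1 and M2. Besides Tlr7 and Cd14 in CTL and Tlr13 in tdT- BLZ945, the blocks that pair the same animals changed no call. The filter of the study lost Tlr4 in CTL (adjusted p = 0.0506) and Tlr13 in tdT+ (0.055), and RLE factors lost Tlr13 in tdT+ (0.0537). The causes were not tested. Over all genes, DESeq2 called 238 in MG BLZ945 against CTL (edgeR 46), 56 in tdT- BLZ945 against CTL (0), 133 in tdT+ against tdT- BLZ945 (27), 181 against tdT- CTL (37) and 94 for the difference of the BLZ945 effects (5). Where a group holds 3 libraries, or a transcript few counts as Tlr9 and Tlr8 in MG, the data limit what could be called.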
